A study of Mus musculus with 9 samples.

Results

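The cytosolic ribosomal protein genes encode the proteins of the 40S and 60S subunits of the ribosome, the particle that translates messenger RNA in the cytoplasm. They were chosen by symbol, as Rpl or Rps followed by a number and at most 1 letter and 1 digit, together with the stalk genes Rplp0, Rplp1 and Rplp2 and with Rpsa and Fau. Of 21423 genes in the table, 85 symbols matched. Of these, 82 had a mean of at least 1 RPKM (reads per kilobase of gene model, scaled to the mapped reads of the lane) over the 9 lanes, 34 of the small and 48 of the large subunit, among 14051 genes at that level.

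Messenger RNA was sequenced in the nucleus accumbens, the reward-related region of the ventral striatum, of adult male C57BL/6 mice aged 2 to 5 months. The cocaine group was injected intraperitoneally once a day for 7 days with cocaine at 10 or 20 mg/kg, a dose that the labels tie to no sample, and was killed 24 h after the last injection. The withdrawal group received the same course of cocaine and was then left untreated in its cages for 8 days. The saline group received 10 ml/kg saline for 7 days and was killed 24 h after the last injection. A pool of RNA from 8 mice in equal amounts stood for each group and gave 1 library, sequenced in 3 lanes. There was thus 1 library per group and no replicate check of any difference between treatments. Values are the mean ± SD over the 3 lanes of 1 library, and these errors cover sequencing only. Withdrawal and saline differed both in past cocaine and in the time since the last injection, and these cannot be told apart.

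The proteins of a ribosome are needed in nearly equal amounts, and their genes are scattered over the genome yet expressed together at high levels in every cell type. Their transcripts, with those of some translation factors, belong to the terminal oligopyrimidine (TOP) class: they start with a C followed by an unbroken run of pyrimidines, through which the kinase mTOR and the protein LARP1 control their translation. In neurons, translation in dendrites takes part in long-lasting synaptic change, and phosphorylation of the S6 protein is widely used as a mark of neuronal activity.

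The reference annotation places 81 of the genes on 20 chromosomes, with at most 14 on 1 chromosome (chromosome 7). Promoter windows of 300 bases, from 250 before to 50 after the annotated start, were found in RefSeq (build GRCm38.p6) for 60 of the 82 genes. An unbroken run of at least 7 C or T letters on the gene's strand, within 40 bases either side of the start, was found in 49 of the 60 windows (81.7%), against 38.4% of 9527 windows of genes at 1 RPKM or more and 42.8% of all 27025 windows. A run of at least 10 letters was found in 31 (51.7%), against 13.6% and 14.1%. The following windows run from 60 bases before the start to 20 bases after it, 5′ to 3′ on the gene's strand. They are shown because they hold long, short and no runs and belong to genes whose values are described in detail. Capitals mark runs of 7 or more pyrimidines.
Rpl7a (chr2:26910747-26910826, plus strand): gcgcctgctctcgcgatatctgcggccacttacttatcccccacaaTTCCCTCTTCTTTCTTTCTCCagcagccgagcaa
Fau (chr19:6057887-6057966, plus strand): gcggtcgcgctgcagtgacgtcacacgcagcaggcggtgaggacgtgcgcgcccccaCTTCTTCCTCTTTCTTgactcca
Rps6 (chr4:86857348-86857427, minus strand): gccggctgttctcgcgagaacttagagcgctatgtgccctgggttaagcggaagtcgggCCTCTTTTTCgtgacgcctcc
Rpl22l1 (chr3:28805448-28805527, plus strand): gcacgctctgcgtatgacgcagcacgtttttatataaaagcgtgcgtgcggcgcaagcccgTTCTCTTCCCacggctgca
Rps27l (chr9:66946026-66946105, plus strand): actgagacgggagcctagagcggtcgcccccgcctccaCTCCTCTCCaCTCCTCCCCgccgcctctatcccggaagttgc
Rplp0 (chr5:115559407-115559486, plus strand): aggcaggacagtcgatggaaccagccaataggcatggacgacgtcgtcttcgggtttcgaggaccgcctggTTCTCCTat
Rps23 (chr13:90923062-90923141, plus strand): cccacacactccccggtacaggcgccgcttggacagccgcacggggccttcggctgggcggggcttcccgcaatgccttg
Rpl41 (chr10:128549149-128549228, minus strand): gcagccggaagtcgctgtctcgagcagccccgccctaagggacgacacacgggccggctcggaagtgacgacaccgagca

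The run in Rpl7a is 21 letters long, in Fau 16 letters and in Rps6 and Rpl22l1 10 letters each, and Rps27l has a pair of runs of up to 9 letters. The letters CTTTCC, within 40 bases either side of the start on the gene's strand, were found in 14 of the 60 windows (23.3%), against 3.3% of the windows of genes at 1 RPKM or more; this motif is itself a stretch of pyrimidines and overlaps the runs. CCGGAAG, on either strand of the whole window, was found in 23 windows (38.3%), against 16.8%. AAGATGGC, likewise on either strand, was found in 6 (10%), against 4.53%. TATAAA, in the 40 bases before the start on the gene's strand, was found in 1 window (1.67%), against 1.15%. The median GC content of the 60 windows was 58.2%, against 61.3% over the windows of genes at 1 RPKM or more.

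The ribosomal protein genes were among the most abundant transcripts in all 3 libraries. The 82 genes held 6.10 to 6.17% of the summed RPKM of all genes in the 3 cocaine lanes, 6.16 to 6.19% in the 3 withdrawal lanes and 7.54 to 7.72% in the 3 saline lanes. A share of summed RPKM is not a share of reads. Reads recovered per gene from the RPKM sum to more than the lane totals, and of that sum the 82 genes held 2.02 to 2.05% in cocaine, 2.02 to 2.04% in withdrawal and 2.71 to 2.79% in saline. On both measures the lanes of the cocaine and of the withdrawal library lay below every saline lane. In the saline library 24 of the 100 genes with the highest RPKM were ribosomal protein genes, and the median gene of the group had 292.5 RPKM. The 40S genes held 43.9 to 44.8% of the group's RPKM in the cocaine lanes, 44.4 to 44.9% in the withdrawal lanes and 44.4 to 44.7% in the saline lanes, ranges that overlap.

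Rpl41, which encodes the smallest ribosomal protein, had the highest mean over the 9 lanes: 1037, 978 and 957.2 RPKM in the cocaine lanes, 1044, 930.8 and 993.9 RPKM in the withdrawal lanes, and 1422, 1409 and 1409 RPKM in the saline lanes. Rps21, a small subunit protein, averaged 996.8 ± 51.2 RPKM in cocaine, 961.6 ± 24.6 RPKM in withdrawal and 1304 ± 11.8 RPKM in saline. Rpl9, a large subunit protein, averaged 772.5 ± 46.4 RPKM in cocaine, 744.3 ± 45.4 RPKM in withdrawal and 1181 ± 28.4 RPKM in saline. In these genes no cocaine or withdrawal lane reached a saline lane. Rps2 averaged 714.2 ± 50.1, 731.4 ± 26.3 and 980.6 ± 18.0 RPKM in cocaine, withdrawal and saline. The stalk gene Rplp1 averaged 691.6 ± 28.7, 762.1 ± 20.9 and 948.3 ± 40.2 RPKM in the same order, and Rps27a 687.3 ± 2.41, 681.6 ± 5.0 and 914.4 ± 28.6 RPKM. In all, 66 of the 82 genes stayed at 100 RPKM or more in every lane.

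At the low end, Rpl7l1, a relative of Rpl7, lay furthest down among the 82 genes, with 8.83, 10.69 and 12.19 RPKM in cocaine, 7.59, 8.97 and 9.32 RPKM in withdrawal, and 11.98, 10.0 and 13.01 RPKM in saline. Rps27l followed, at 15.92 ± 3.08 RPKM in cocaine, 10.24 ± 0.717 RPKM in withdrawal and 19.28 ± 4.22 RPKM in saline. Rpl22l1, the paralog of Rpl22, came next at 25.8 ± 2.71, 26.72 ± 0.71 and 49.33 ± 6.96 RPKM in cocaine, withdrawal and saline. The 3 matched symbols below 1 RPKM were Rpl3l, a copy known from striated muscle, at 0.486 ± 0.331, 0.181 ± 0.157 and 0.545 ± 0.305 RPKM, Rpl39l at 0.176 ± 0.305, 0.121 ± 0.209 and 0.231 ± 0.203 RPKM, and Rpl10l, a testis copy listed at 0 in all cocaine and withdrawal lanes and in 1 saline lane. The genes nearest the limit on either side were therefore Rpl7l1 and Rpl3l, and the limit fell in a wide gap.

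**Figure D1:**
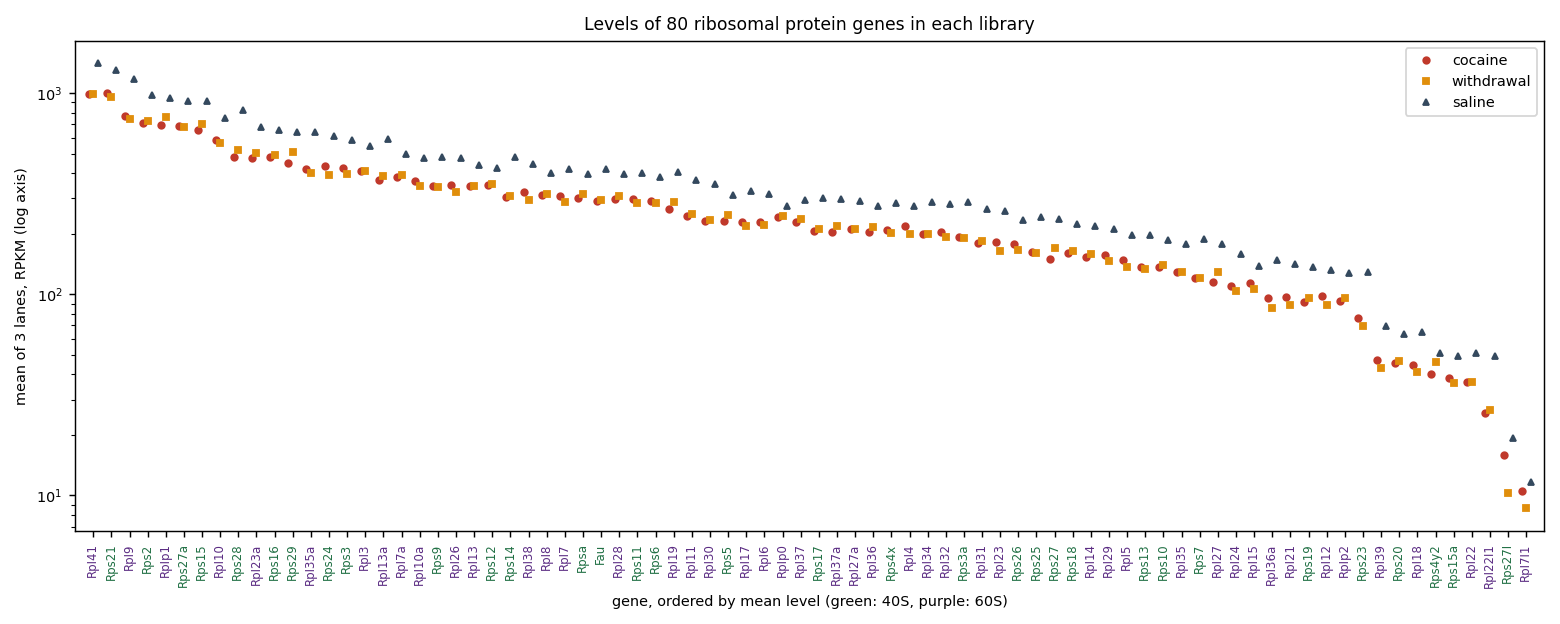
Mean of the 3 lanes of each library, in RPKM on a log axis, for 80 of the 82 ribosomal protein genes ordered by their mean level (red circles cocaine, orange squares withdrawal, dark triangles saline; gene names green for 40S, purple for 60S). The saline triangle is the highest of the 3 points in every gene shown, and the order of the genes is nearly the same in the 3 libraries.

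The order of the genes was almost the same in the 3 libraries: across the 82 genes, Spearman's rho of the levels was 0.991 for cocaine and saline, 0.991 for withdrawal and saline, and 0.996 for withdrawal and cocaine. Genes are not independent replicates, and these values are a description. Levels of neighbouring genes in this order also depend on the gene models. For 74 genes with a principal transcript in the reference, the model used for the RPKM had a median of 1.37 times that transcript's length and over 2 times its length in 18 genes, as in Rplp2, with a model of 2072 bp against 449 bp. In addition, 300 annotated pseudogenes are named after 61 of the 82 genes, and reads shared with such copies make the levels uncertain. Differences between libraries compare the same model each time, but reads shared with copies can enter them too.

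The first comparison asked how the transcripts stood 24 h after repeated cocaine. All 82 genes had a lower mean on the log2(RPKM + 0.5) scale in the cocaine than in the saline library, where 56.5% of all 14051 genes did. The median difference was -0.47, a level 27.7% lower, against -0.047 over all genes compared. With the size rule used throughout, a difference of at least 1.5 times and no overlap between the lanes of the libraries, 13 of 82 were called lower (15.9%), against 2.41% of all genes, and 0 were called higher, against 2.93%. A level of at most 0.8 times that in saline, with lanes apart, was found in 74 (90.2%), against 12.1% of all genes, and in 79 every cocaine lane lay below every saline lane (96.3%), against 23.9%. In pooled tissue, fewer cells of a type and less RNA per cell cannot be told apart.

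These values moved with the scale on which genes were compared. Across all genes the difference was more positive for longer gene models (Spearman's rho 0.464), and ribosomal protein genes are short, with a median of 1119 bp against 3531 bp. Centred on the median of genes of like length, the median of the 82 genes was -0.24 and 1 call was left. Centred on genes alike in both length and level, a step chosen after seeing the data, it was -0.105 with 64 of 82 negative and 1 call, Rpl22l1. The classes used for centring include the ribosomal protein genes themselves, which made up as much as 14.9% of a class of length and level and 3.41% of a class of length. The share of all genes called on the centred scales was not counted, so an excess of calls cannot be judged there.

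Among the 40S genes, 5 of 34 were called lower, against 2.41% of all genes, with a median of -0.47. Rps28, one of the smallest proteins of the subunit, had 515.1, 477.9 and 455.7 RPKM in the cocaine lanes, against 794.1, 830.6 and 852.3 RPKM in the saline lanes. The libraries stood far apart, and the difference was -0.77 ± 0.059 (log2, standard error from the lanes). Rps23, part of the decoding centre, had 70.71, 79.45 and 78.04 RPKM in the cocaine lanes, against 126.2, 129.7 and 129.6 RPKM in the saline lanes. It fell by 0.75 ± 0.053, and its saline lanes lay close together. Rps27, a zinc finger protein of the subunit, had 137.6, 150.1 and 160.6 RPKM in the cocaine lanes, against 219.5, 240.2 and 252.9 RPKM in the saline lanes (-0.67 ± 0.088). Rps14 (-0.65 ± 0.056) and Rps7 (-0.65 ± 0.089) were the other two calls.

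The smallest differences among the 40S genes were those of Rps27l and Rps12. Rps27l, a relative of Rps27 known as a target of p53, had 12.81, 18.97 and 15.99 RPKM in cocaine, against 24.15, 17.04 and 16.66 RPKM in saline, and the lanes overlapped (-0.27 ± 0.23). It also rests on few reads, 49 in its lowest lane, where the median gene of the group had 1450 in its lowest lane. Rps12 differed by -0.29 ± 0.083. Rps6, the substrate of S6 kinase, had 282, 293.2 and 299.7 RPKM in cocaine, against 379.4, 370.6 and 403.2 RPKM in saline (-0.40 ± 0.044). Its lanes did not overlap, but the difference was under the size limit. The same held for the genes made as fusions to ubiquitin or a ubiquitin-like protein, Rps27a (-0.41 ± 0.026) and Fau (-0.52 ± 0.051), and for Rpsa, also known as the laminin receptor (-0.39 ± 0.047).

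Among the 60S genes, 8 of 48 were called lower, against 2.41% of all genes, and the median was also -0.47. Rpl22l1 had 23.56, 28.81 and 25.03 RPKM in the cocaine lanes, against 51.67, 41.5 and 54.81 RPKM in the saline lanes. At -0.92 ± 0.15 it was the most negative of the 82 genes, and its parent Rpl22 differed by -0.47 ± 0.12 without a call. The ratio of Rpl22l1 to Rpl22 was 0.708 ± 0.0795 in the cocaine lanes and 0.981 ± 0.197 in the saline lanes, and these lanes overlapped. Rpl13a, known for a role outside the ribosome in inflammatory translational control, had 371.8, 366.1 and 377.2 RPKM in cocaine, against 563.5, 598.2 and 608.2 RPKM in saline (-0.67 ± 0.036). The other calls were Rpl36a (-0.62 ± 0.053), Rpl35a (-0.62 ± 0.058), Rpl9 (-0.61 ± 0.055), Rpl27 (-0.61 ± 0.048), Rpl30 (-0.60 ± 0.050) and Rpl19 (-0.60 ± 0.049). Of these 6, all but Rpl35a were no longer called once a single lane was dropped: Rpl9 (-0.56), Rpl27 (-0.57) and Rpl36a (-0.58) without cocaine lane 1, Rpl19 (-0.57) and Rpl30 (-0.57) without cocaine lane 2, Rpl19 (-0.58) without saline lane 2 and Rpl30 (-0.57) without saline lane 3.

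Rplp0, the base of the acidic stalk that recruits translation factors, stood out at the other end. It had 241.3, 249.6 and 233.9 RPKM in the cocaine lanes, against 271.6, 276.7 and 278.3 RPKM in the saline lanes, a difference of -0.19 ± 0.029 with no overlap. Its partners on the stalk, Rplp1 (-0.46 ± 0.049) and Rplp2 (-0.47 ± 0.098), lay at the median of the group. The difference of Rplp0 became 0.036 when centred by length, and 0.144 when centred by length and level. Rpl7l1 differed by -0.14 ± 0.17 with overlapping lanes, against -0.44 ± 0.065 for Rpl7. Rpl15, a core protein of the large subunit, had 114.2, 116 and 110.9 RPKM in cocaine, against 137.4, 132.6 and 146.7 RPKM in saline (-0.29 ± 0.046). Rpl5 (-0.41 ± 0.039) and Rpl11 (-0.58 ± 0.059), which form a particle with the 5S ribosomal RNA that binds MDM2 when ribosome assembly is disturbed, had no call.

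**Figure D2:**
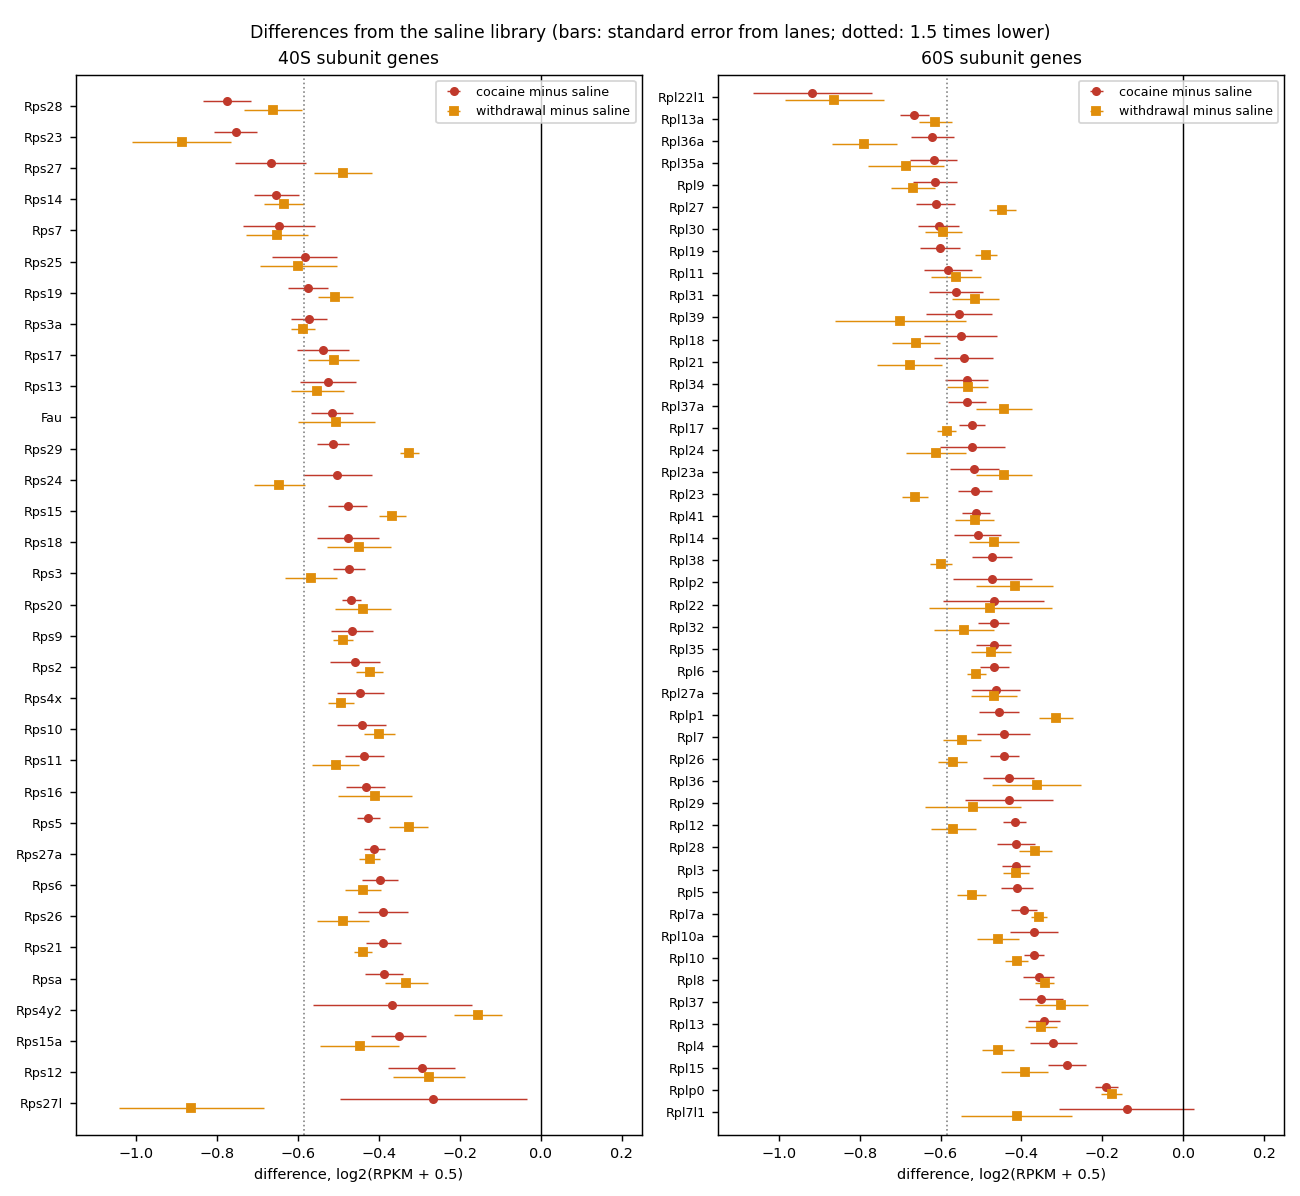
Difference from the saline library on the log2(RPKM + 0.5) scale for 80 of the 82 genes, 40S on the left and 60S on the right, for cocaine (red circles) and withdrawal (orange squares), which share the saline library. Bars are standard errors from the lanes, and the dotted line marks 1.5 times lower. Every point lies left of 0, and the bulk of the genes lie between -0.3 and -0.7.

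The second comparison set the library taken after 8 days of withdrawal against the saline library, which it shares with the first, so that the values of both comparisons are related. All 82 genes had a lower mean in withdrawal, where 56.6% of all genes did, with a median of -0.49 (28.7% lower) against -0.056 over all genes. The size rule called 21 of 82 lower (25.6%), against 3.37% of all genes, and 0 higher, against 3.96%. A level of at most 0.8 times that in saline, with lanes apart, was found in 76 (92.7%), against 15.2% of all genes, and in all 82 every withdrawal lane lay below every saline lane, against 25.6% of all genes. The rho with model length over all genes was 0.422. Centred by length the median was -0.26 with 3 calls, and centred by length and level it was -0.121 with 63 of 82 negative and 0 calls. Calls over all genes were not counted on these scales either.

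Among the 40S genes, 9 of 34 were called lower, against 3.37% of all genes, with a median of -0.49. Rps23 was the most negative of the 82 genes, with 59.15, 79.02 and 70.87 RPKM in the withdrawal lanes, against 126.2, 129.7 and 129.6 RPKM in the saline lanes (-0.89 ± 0.12). Rps27l had 10.81, 10.46 and 9.43 RPKM in withdrawal, against 24.15, 17.04 and 16.66 RPKM in saline (-0.86 ± 0.18). All its withdrawal lanes lay below the lowest saline lane, though 1 saline lane stood above the other two. Rps28 (-0.66 ± 0.071), Rps7 (-0.65 ± 0.077), Rps24 (-0.65 ± 0.062) and Rps14 (-0.63 ± 0.050) were also called. Rps25 (-0.60 ± 0.095) and Rps3a (-0.59 ± 0.030) were called with all lanes and lost the call without 1 lane. For Rps25 the value was -0.54 without withdrawal lane 2 and -0.53 without saline lane 2. For Rps3a it was -0.57 without withdrawal lane 1, -0.58 without saline lane 1 and -0.57 without saline lane 2.

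Rps4y2, a gene close in sequence to Rps4x and listed as Rps4l in RefSeq, differed least. It had 48.95, 45.39 and 43.71 RPKM in withdrawal, against 50.34, 53.85 and 49.54 RPKM in saline (-0.15 ± 0.060), while Rps4x differed by -0.49 ± 0.033. Reads of such close copies can be split between them, so both values are uncertain. Rps12 had 341.1, 324.8 and 391.4 RPKM in withdrawal, against 409, 448.7 and 419.6 RPKM in saline (-0.28 ± 0.090). Rps6 (-0.44 ± 0.044), Rps27a (-0.42 ± 0.027), Fau (-0.51 ± 0.096) and Rpsa (-0.33 ± 0.053) lay below the saline lanes without a call.

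Among the 60S genes, 12 of 48 were called lower, against 3.37% of all genes, with a median of -0.50. Rpl22l1 had 27.46, 26.67 and 26.04 RPKM in the withdrawal lanes, against 51.67, 41.5 and 54.81 RPKM in the saline lanes (-0.86 ± 0.12). Rpl36a had 80.95, 95.44 and 80.57 RPKM in withdrawal, against 148, 148.2 and 147.2 RPKM in saline (-0.79 ± 0.080). Both libraries were thus well apart in these genes. Rpl35a (-0.69 ± 0.094), Rpl21 (-0.68 ± 0.080), Rpl9 (-0.67 ± 0.054), Rpl23 (-0.66 ± 0.032), Rpl18 (-0.66 ± 0.058) and Rpl13a (-0.61 ± 0.040) were also called. Rpl39 (-0.70 ± 0.16), Rpl24 (-0.61 ± 0.073), Rpl38 (-0.60 ± 0.027) and Rpl30 (-0.59 ± 0.046) lost the call without 1 lane. The values were -0.56 for Rpl39, -0.57 for Rpl24 and -0.57 for Rpl30 without withdrawal lane 1. They were -0.56 for Rpl24 without saline lane 2, and -0.58 for Rpl38 and -0.56 for Rpl30 without saline lane 3.

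Rplp0 again had one of the smallest differences, with 248.6, 235.8 and 247 RPKM in withdrawal, against 271.6, 276.7 and 278.3 RPKM in saline (-0.18 ± 0.026). It was 0.078 when centred by length and 0.175 when centred by length and level. Rplp1 (-0.31 ± 0.042) and Rplp2 (-0.42 ± 0.095) had no call. Rpl5 (-0.52 ± 0.035) and Rpl11 (-0.56 ± 0.062) were lower without a call, as were Rpl7 (-0.55 ± 0.047) and Rpl7l1 (-0.41 ± 0.14). Rpl36al, the copy of Rpl36a that the symbol rule leaves out, averaged 98.4 ± 4.8 RPKM in cocaine, 106 ± 8.0 RPKM in withdrawal and 166 ± 13 RPKM in saline, and was called lower in both (-0.75 ± 0.075 and -0.65 ± 0.087).

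**Figure D3:**
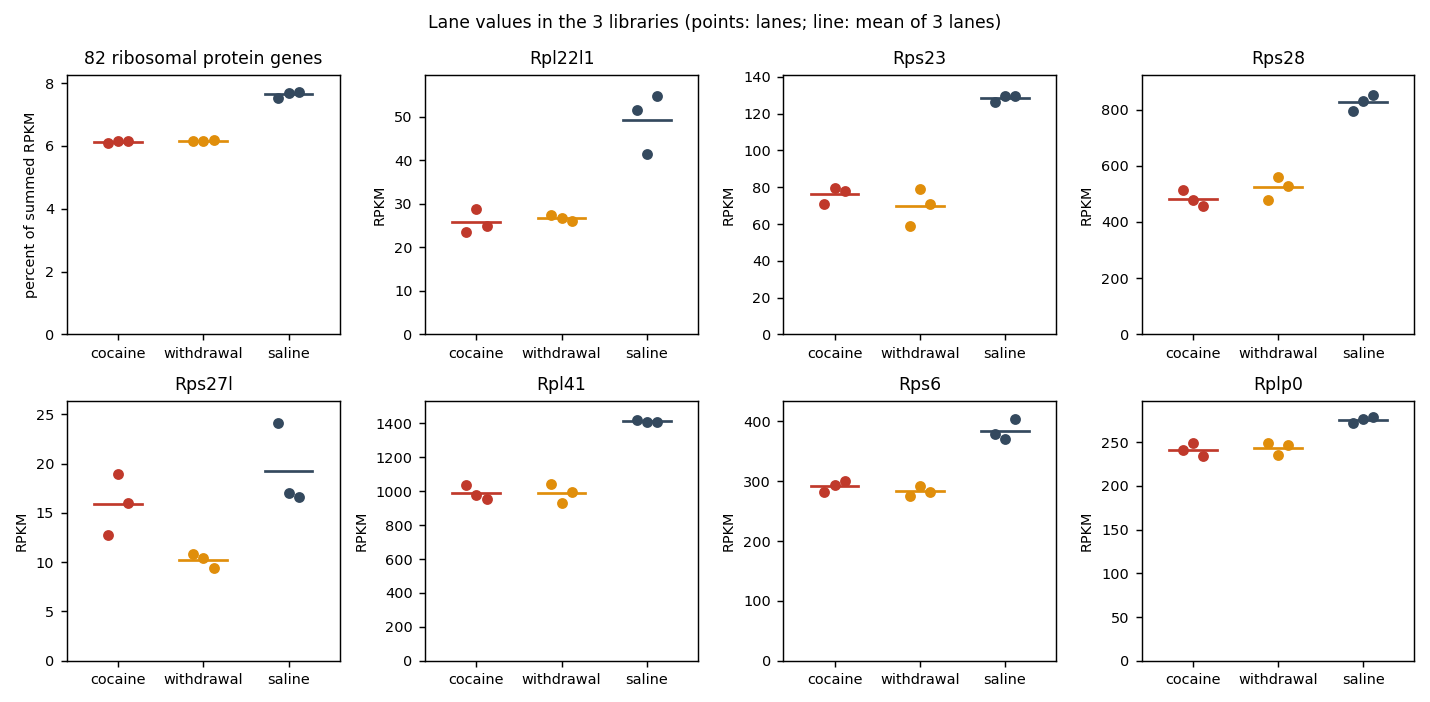
Lane values of the cocaine (red), withdrawal (orange) and saline (dark blue) libraries, all on axes from 0: the share of the summed RPKM held by the 82 genes, in percent, and the RPKM of 7 genes; points are lanes and lines the mean of 3 lanes. Cocaine and withdrawal lie together below saline in the share, at 6.10 to 6.19% against 7.54 to 7.72%, and Rps27l is the gene in which cocaine and saline lanes overlap.

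The third comparison, withdrawal against cocaine, does not use the saline library. The ribosomal protein genes showed no common direction in it: 45 were lower and 37 higher in withdrawal, and 52.1% of all genes were lower. The median was -0.0059 for the 82 genes, 0.0032 for the 40S and -0.0073 for the 60S genes, and -0.0074 over all genes. The size rule called 1 gene lower (1.22%), against 0.548% of all genes, and 0 higher, against 0.47%. Lanes did not overlap in 10 genes that were lower (12.2%), against 9.42% of all genes, and in 6 that were higher (7.32%), against 8.66%.

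The single call was Rps27l, with 10.81, 10.46 and 9.43 RPKM in the withdrawal lanes, against 12.81, 18.97 and 15.99 RPKM in the cocaine lanes (-0.60 ± 0.17). The lanes did not overlap, but the value lay at the limit, and was -0.54 without withdrawal lane 3 and -0.47 without cocaine lane 2. The ratio of Rps27l to its parent Rps27 was 0.0607 ± 0.00637 in the withdrawal lanes and 0.106 ± 0.0177 in the cocaine lanes, also without overlap. In the saline lanes it was 0.110, 0.0709 and 0.0659, so that 1 lane lay in the cocaine range, 1 in the withdrawal range and 1 between them. Rpl7l1 (-0.27 ± 0.15) and Rpl36a (-0.17 ± 0.096) followed, both with overlapping lanes.

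At the upper end, Rps29, a small zinc-binding protein of the 40S subunit, had 518, 499.6 and 518.1 RPKM in withdrawal, against 464.9, 427.8 and 454.3 RPKM in cocaine (0.19 ± 0.040). Rpl27 had 125.1, 133.8 and 130.6 RPKM in withdrawal, against 108.7, 120.6 and 118.2 RPKM in cocaine (0.16 ± 0.053). In both the lanes were apart and the difference was under the size limit. Rps27 had 160, 175.7 and 171.5 RPKM in withdrawal, against 137.6, 150.1 and 160.6 RPKM in cocaine (0.18 ± 0.076), with overlapping lanes. Rps4y2 had 48.95, 45.39 and 43.71 RPKM in withdrawal, against 51.54, 32.9 and 36.55 RPKM in cocaine (0.21 ± 0.20), where 1 cocaine lane stood far above the other two.

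Set beside other genes of like model length, ribosomal protein genes had the more negative median against saline in each length class that held any. The amount depended on the class. Among models of 1000 to 1500 bp, the 21 ribosomal protein genes had a median of -0.47 in cocaine and -0.49 in withdrawal against saline, where 957 other genes had -0.28 and -0.31. Among models of 3000 to 4000 bp, 5 ribosomal protein genes had -0.54 and -0.51, where 2278 other genes had -0.072 and -0.074. The classes go by gene model, which can be far longer than the transcript. Within this class Rps19 had a model of 3072 bp against a transcript of 703.5 bp, and Rps20 had 3706 bp for both. Classes by transcript length were not tested. Under 500 bp, 7 ribosomal protein genes had -0.46 and -0.49, where 375 other genes had -0.11 and 0.021 with a wide spread. Above 6000 bp the other genes were higher than saline, at 0.18 and 0.17, while the single ribosomal protein gene, Rps15a, differed by -0.35 ± 0.068 in cocaine and -0.45 ± 0.098 in withdrawal. Within the 82 genes, the rho of the difference with model length was 0.171 in cocaine and 0.0197 in withdrawal.

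**Figure D4:**
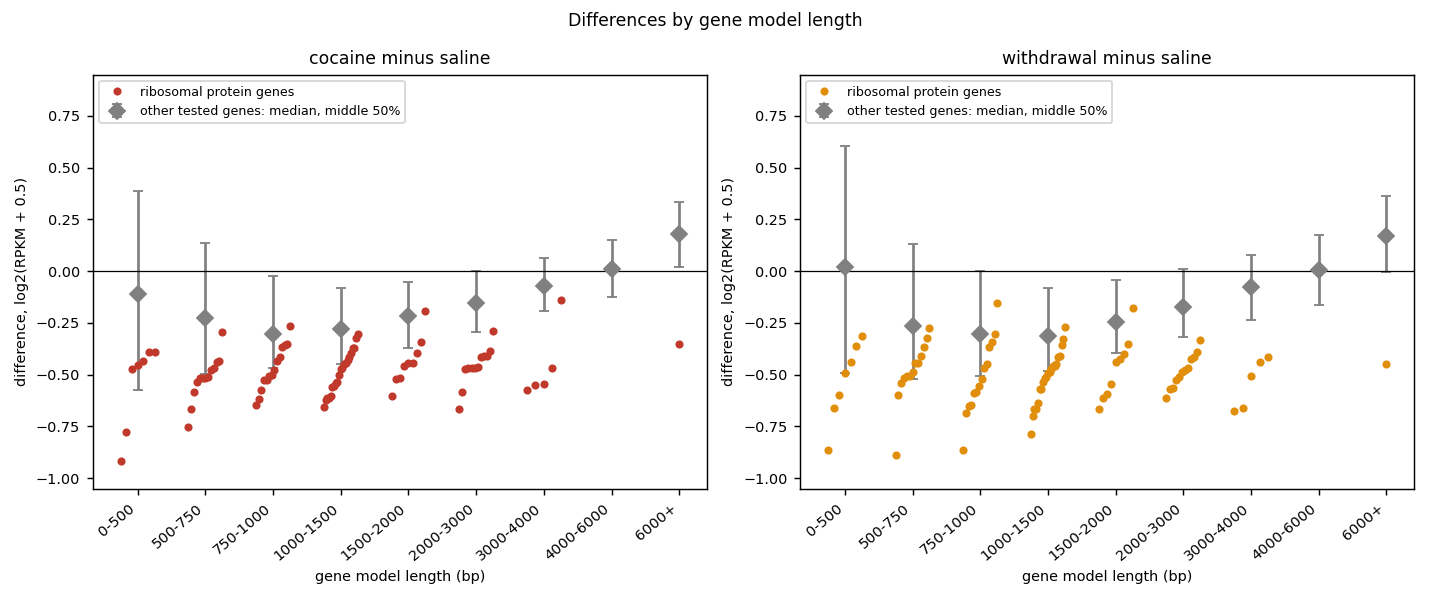
Difference from the saline library, log2(RPKM + 0.5), in 9 classes of gene model length (bp), for cocaine on the left and withdrawal on the right. Coloured points are ribosomal protein genes, and grey diamonds with bars are the median and middle 50% of the other genes; the grey medians climb with length from 1000 bp on, whereas the points stay near the same level.

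Median differences were also taken by the longest pyrimidine run within 40 bases either side of the start. Such a run can lie before the start or well after it, so these classes do not identify TOP transcripts. The 31 genes with a run of 10 or more letters had median differences of -0.47 in both cocaine and withdrawal, the 18 with 7 to 9 letters -0.44 and -0.49, and the 11 with none of 7 or more -0.52 and -0.52. Rpl7a, with the 21-letter run shown above, differed by -0.39 ± 0.032 in cocaine and -0.36 ± 0.020 in withdrawal. Rps23, with no run in the bases shown above, differed by -0.75 ± 0.053 and -0.89 ± 0.12. The bases shown end sooner after the start than those searched for runs, so they do not place Rps23 among the 11 genes. Among other genes at 1 RPKM or more, the 1265 with a run of 10 or more letters had medians of -0.013 and -0.018, the 2348 with 7 to 9 letters had -0.042 and -0.058, and the 5854 without a run of 7 had -0.055 and -0.060.

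Without centring, the medians of other lists of translation genes lay closer to saline than that of the ribosomal protein genes. For the counts in this and the following lists, the shares of all genes called lower were 2.41% in cocaine and 3.37% in withdrawal. The shares called higher were 2.93% and 3.96%. Other TOP and ribosome-bound genes (12 at 1 RPKM or more) had medians of -0.27 in cocaine and -0.37 in withdrawal, with 0 and 1 called lower and 0 called higher. Tpt1, a TOP transcript for translationally controlled tumour protein, had 474 ± 5.0 RPKM in cocaine, 439 ± 16 RPKM in withdrawal and 613 ± 14 RPKM in saline (-0.37 ± 0.021 and -0.48 ± 0.036 against saline). Gnb2l1, which encodes the ribosome-bound scaffold RACK1, differed by -0.25 ± 0.054 and -0.25 ± 0.053. The call was Btf3, a subunit of the nascent chain-associated complex, in withdrawal (-0.67 ± 0.054).

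Of 14 genes of elongation and termination, 0 were called in either direction, and the medians were -0.13 and -0.27. Eef1a1, which brings aminoacyl-tRNA to the ribosome, had 2911 ± 103 RPKM in cocaine, 2854 ± 100 RPKM in withdrawal and 3432 ± 103 RPKM in saline (-0.24 ± 0.039 and -0.27 ± 0.039). Eef2, the translocation factor, differed by 0.04 ± 0.040 and 0.08 ± 0.027. Its transcript also belongs to the TOP class, but the gene is counted here with elongation. Of 37 initiation factors (medians -0.27 and -0.29), 2 were called lower in cocaine and 3 in withdrawal, and 0 higher. These were Eif2s2, a subunit of the factor that delivers the initiator tRNA (-0.70 ± 0.080 and -0.93 ± 0.092), Eif5b, which promotes subunit joining (-0.67 ± 0.073 and -0.69 ± 0.050), and in withdrawal Eif1b (-0.76 ± 0.084). Pabpc1, the poly(A)-binding protein, is in both this list and that of other TOP and ribosome-bound genes. It differed by -0.12 ± 0.063 and -0.19 ± 0.060. Centred by length, the medians in cocaine and withdrawal were -0.16 and -0.27 for the other TOP and ribosome-bound genes. They were -0.090 and -0.146 for elongation and -0.14 and -0.20 for initiation, against -0.24 and -0.26 for the ribosomal protein genes. Centred by length and level, they were -0.060 and -0.228, -0.091 and -0.099, and -0.109 and -0.156 for the same lists, against -0.105 and -0.121. The ribosomal protein genes were thus the most negative of these 4 lists in cocaine when centred by length. In withdrawal the other TOP and ribosome-bound genes had nearly the same median by length, and a more negative one by length and level. Initiation, centred by length and level, was nearly equal to the ribosomal protein genes in cocaine and slightly more negative in withdrawal. With either centring 2 initiation factors were called lower in each comparison with saline and 0 genes of the other two lists.

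Genes that build ribosomes had, without centring, medians of -0.21 in cocaine and -0.26 in withdrawal for 54 biogenesis genes, with 1 and 2 called lower and 0 higher. The calls were Nhp2, a protein of the RNA particles that make pseudouridine, in cocaine (-0.67 ± 0.11; -0.58 and no call without cocaine lane 2), and Utp11l (-0.75 ± 0.27) and Brix1 in withdrawal (-0.60 ± 0.088). Brix1 was not called without withdrawal lane 2 (-0.55) or saline lane 3 (-0.53). Ncl, nucleolin, differed by -0.45 ± 0.060 and -0.55 ± 0.034, and Npm1, nucleophosmin, by -0.24 ± 0.080 and -0.54 ± 0.064. The 19 genes of RNA polymerase I, which transcribes the large ribosomal RNA, had medians of -0.38 and -0.28, with 1 and 4 called lower and 0 higher. Taf1d, a subunit of its promoter selectivity factor, was called in both (-0.59 ± 0.18 and -0.74 ± 0.20). In cocaine the call ended without cocaine lane 2 (-0.55), cocaine lane 3 (-0.52), saline lane 1 (-0.52) or saline lane 2 (-0.53). The other calls in withdrawal were of Polr1d (-0.59 ± 0.17), Polr2h (-0.75 ± 0.24) and Polr2k (-0.77 ± 0.21), subunits that polymerase I shares with other RNA polymerases. Polr1d was not called without withdrawal lane 2 (-0.52), withdrawal lane 3 (-0.54) or saline lane 3 (-0.48), nor Polr2h without withdrawal lane 1 (-0.56). Centred by length, the medians in cocaine and withdrawal were -0.104 and -0.132 for biogenesis, with 1 call each, and -0.22 and -0.10 for polymerase I, with 0 and 1 calls. Centred by length and level, they were -0.096 and -0.138, with 1 call each, and -0.19 and -0.16, with 0 calls.

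The 27 genes of mTOR and S6 kinase signalling had medians of -0.014 and -0.0060, which turned to 0.036 and 0.051 when centred by length. They had 0 calls in either direction, and 1 gene called higher in each comparison with saline when centred by length or by length and level. Mtor, the kinase, had 21.0 ± 0.31 RPKM in cocaine, 21.9 ± 0.43 RPKM in withdrawal and 15.2 ± 1.1 RPKM in saline (0.45 ± 0.060 and 0.51 ± 0.061). Larp1, which binds the TOP motif, differed by -0.27 ± 0.070 and -0.33 ± 0.062. Rictor (0.56 ± 0.12 and 0.46 ± 0.11), the defining subunit of the second mTOR complex, and Eif4ebp2 (0.47 ± 0.086 and 0.58 ± 0.066), the main 4E-binding protein of brain, were higher without a call.

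Lists of other large complexes were set beside the ribosomal protein genes. The shares of all genes called lower were 2.41% in cocaine and 3.37% in withdrawal. The 76 mitochondrial ribosomal protein genes had medians of -0.34 in cocaine and -0.33 in withdrawal, with 8 and 5 called lower and 0 higher. Of these, 6 of the 8 and 4 of the 5 were not called in at least 1 run without a lane. The 82 nuclear genes of oxidative phosphorylation had -0.41 and -0.41, with 12 and 11 called lower and 0 higher, of which 3 and 1 were lost in such a run; of the 82 ribosomal protein genes 13 and 21 were called. Ndufc1, a subunit of complex I, differed by -0.90 ± 0.059 and -0.78 ± 0.074. The 37 proteasome genes had -0.35 and -0.42, with 0 and 3 called lower and 0 higher, and 2 of the 3 were lost without 1 lane. In withdrawal against cocaine, the share of all genes called higher was 0.47%. The mitochondrial ribosomal protein list there held 2 genes called higher, Mrpl23 (0.76 ± 0.27) and Mrpl34 (0.63 ± 0.27; 0.38 and no call without cocaine lane 2), and the oxidative phosphorylation and proteasome lists had 0 calls. The order of the lists depended on the scale. Centred by length, the medians in cocaine and withdrawal were -0.24 and -0.26 for the ribosomal protein genes, -0.17 and -0.15 for mitochondrial ribosomal proteins, -0.19 and -0.21 for oxidative phosphorylation and -0.16 and -0.19 for the proteasome. Calls of lower genes were then 1 and 3, 0 and 1, 3 and 1, and 0 and 0 in the same order of lists. Centred by length and level, they were -0.105 and -0.121, -0.124 and -0.138, -0.073 and -0.070, and -0.144 and -0.144 for the same lists, so that the ribosomal protein genes no longer had the most negative median.

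**Figure D5:**
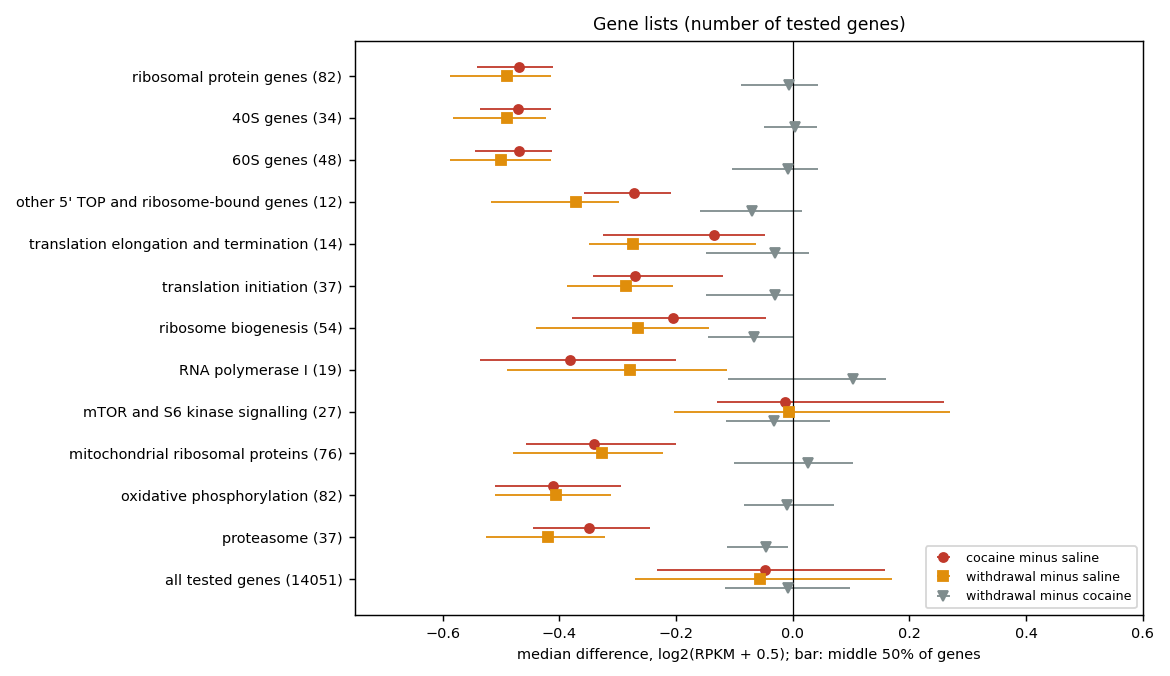
Median difference (symbols) and middle 50% of genes (bars) on the log2(RPKM + 0.5) scale for the ribosomal protein genes, lists of translation, ribosome assembly and mitochondrial genes and all genes compared, with the number of genes in parentheses. Red circles are cocaine minus saline, orange squares withdrawal minus saline and grey triangles withdrawal minus cocaine; on this scale, without centring, the ribosomal protein genes lie furthest left against saline, at -0.47 and -0.49, and near 0 in withdrawal minus cocaine.

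Markers of the accumbens and of other cells also differed between the libraries. Library totals were 24219333 for cocaine, 19452882 for withdrawal and 26006605 for saline. Medium spiny neuron markers were all present, and their summed level was 1432 to 1518 RPKM in the cocaine lanes, 1728 to 1740 RPKM in the withdrawal lanes and 1967 to 2061 RPKM in the saline lanes. Of these 10 genes, 2 were called lower and 0 higher in cocaine, and 0 lower and 1 higher in withdrawal. Against saline, 8 were lower and 2 higher in cocaine (median -0.26), and 5 were lower and 5 higher in withdrawal (median 0.036). In withdrawal against cocaine all 10 were higher, with a median of 0.34 and 0 calls. Endothelial markers summed to 57.8 to 63.6 RPKM in cocaine, 65.5 to 75 RPKM in withdrawal and 42.6 to 44.0 RPKM in saline, with 3 and 6 of 7 called higher. Cortical projection neuron markers summed to 18.3 to 23.8 RPKM in cocaine, 15.6 to 16.2 RPKM in withdrawal and 37.6 to 39.0 RPKM in saline, and 1 and 2 of the 4 at 1 RPKM or more were called lower, led by Slc17a7 (-1.64 ± 0.078 and -2.08 ± 0.12).

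Glial, blood and choroid plexus markers were also read. Oligodendrocyte markers (7 genes) had medians of -0.090 in cocaine and -0.15 in withdrawal, astrocyte markers (7 genes) 0.16 and 0.069, both with 0 calls, and microglial markers (7 genes) -0.16 and -0.25, with Cd68 called lower in cocaine (-0.59 ± 0.23; no call without cocaine lane 2, -0.37, saline lane 1, -0.57, or saline lane 3, -0.57). Erythrocyte markers summed to 318 to 359 RPKM in cocaine, 183 to 201 RPKM in withdrawal and 245 to 259 RPKM in saline. In withdrawal against cocaine, all 3 at 1 RPKM or more were called lower, against 0.548% of all genes. These were Hba-a1 (-0.74 ± 0.097) and Hbb-b1 (-0.89 ± 0.073), which encode globin chains, and Alas2 (-0.74 ± 0.30), an enzyme of haem synthesis. Alas2 was also called higher in cocaine against saline (0.60 ± 0.19), and lost both calls without 1 lane. Choroid plexus and ependymal markers summed to 17.4 to 23.6, 12.6 to 15.8 and 15.3 to 17.6 RPKM in cocaine, withdrawal and saline, and meningeal markers summed to 17.9 to 22.2, 16.9 to 20.1 and 15.2 to 17.8 RPKM. Ttr, transthyretin, a choroid plexus marker, had 5.26, 10.0 and 7.24 RPKM in cocaine, 1.33, 0.617 and 0.901 RPKM in withdrawal and 2.93, 1.29 and 2.90 RPKM in saline. It was called higher in cocaine against saline (2.83 times the saline level on the log2(RPKM + 0.5) scale) and lower in withdrawal against cocaine (-2.45 ± 0.32). The list did not move with Ttr. Of its 4 genes at 1 RPKM or more, 3 were lower and 1 higher in cocaine against saline (median -0.11). In withdrawal against cocaine 2 were lower and 2 higher (median 0.025). Ccdc153, an ependymal marker, was called lower in cocaine against saline (-0.60 ± 0.26), and not without cocaine lane 1 (-0.39) or saline lane 2 (-0.47). Among the markers that averaged under 1 RPKM were Neurod6 (cortical), Folr1 and Kl (choroid plexus), Slc4a1 (erythrocyte), and Lum and Col1a1 (meninges). The part of these other cells in the lower ribosomal protein values was not tested. Model length was described by the centring and the length classes above, and its part as a cause was not tested.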

How the data were processed

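RPKM values per gene and lane were made and deposited by the authors, with a read total for each lane per the file headers. The submitters' processing notes name Bowtie 0.12.7 and the build mm9; how reads were counted, and with which annotation, is not given in the sources used here. Groups and lane numbers came from the sample titles. The same values deposited again in separate files were not used.

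Lane values on the log2(RPKM + 0.5) scale, on which changes of low genes come out too small, were averaged per library (Python 3.11.15, numpy 2.4.6, pandas 2.3.3). Genes averaging 1 RPKM or more over the 9 lanes were compared. A call needed a difference of 1.5 times or more and lane values that did not overlap between the libraries. Lanes are technical runs of 1 library per group, so no p-value was computed. At the recovered gene model lengths, which match every lane value to a relative 1e-11, a read is counted in steps of 1/37, so counts were not whole and no count test was run. Lane totals were 5546362 to 12026754, and the median SD between lanes was 0.062 in cocaine, 0.070 in withdrawal and 0.058 in saline (log2). The calling step was tested on data simulated with the spread between saline lanes only. That test held no variation between libraries, so it cannot show how the calls fare against it.

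Named with lane values are the 4 most negative and 4 most positive genes per comparison; the highest 6 by level and genes of set roles are also given, and from other lists those with large differences or set names. Some genes that this rule names are not reported here and are not drawn where a figure prints gene names. The members, lists and rules were chosen with earlier results of these data known. Promoter windows came from RefSeq, GRCm38.p6, another build than that of the files, so coordinates refer to these windows alone. Alternatives covered the pseudocount, filter, size limit, lane condition, scaling, centring, composite values, lane pairing, members and each lane left out.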

Additional observations from a re-analysis of the deposited data

How the results depend on the processing

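The direction of the median against saline was negative under every alternative run for cocaine and withdrawal, and 0 genes were called higher, but the size of the difference and the number of calls were not stable. With a limit of 0.8 times the saline level, 74 genes were called lower in cocaine and 76 in withdrawal, against 12.1% and 15.2% of all genes. With a limit of 2 times the count was 0 in each. For that limit and the alternatives below, the share of all genes called was not counted. Whether the calls left there exceed that share is therefore not known. Setting the median of all genes to 0 gave 7 calls in cocaine and 14 in withdrawal, with medians of -0.422 and -0.432; scaling lanes to the same 75th percentile gave 5 and 12 calls and medians of -0.397 and -0.415. Centring by length gave 1 and 3 calls and medians of -0.242 and -0.262. Centring by level gave 1 and 3 calls (-0.232 and -0.241), and by length and level 1 and 0 calls (-0.105 and -0.121); both were chosen after seeing the data. Leaving out 1 lane gave 12 to 18 calls in cocaine (medians -0.486 to -0.467) and 16 to 27 in withdrawal (-0.508 to -0.481); 8 of the 13 and 14 of the 21 calls were kept in all 6 such runs. In withdrawal against cocaine, the single call, Rps27l, was lost (0 calls) with a pseudocount of 1 or a limit of 2 times. It was also lost with centring by length or by length and level, without cocaine lane 2 and without withdrawal lane 3. Leaving out the copies Rpl22l1, Rps27l and Rpl7l1 removes the called gene itself, so the 0 calls there were fixed in advance. The median ranged from -0.0268 to 0.00426 over the lanes left out. Causes were not tested beyond what each alternative changes. Lanes of equal number had weak correlations of their deviations (-0.051 to 0.076), which cannot show whether equal numbers mark a shared run. With a replicate block the calls were 13, 21 and 1. They were the same with no condition on lanes, which is looser than the block, so the block could not change them. Depth limits the lowest genes, with 49 reads in the lowest lane of Rps27l. All differences rest on 1 library per group.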
